A study of Macaca radiata with 6 samples.

Results

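Collagens, laminins, fibulins, fibronectin, integrins and syndecans were examined in the CL of bonnet monkeys. Genes were taken by symbol where a probe set of the array carried a single gene symbol that named a collagen chain, a laminin chain, a fibulin, FN1, an integrin subunit or SDC1 to SDC4. Of the 14132 genes read on the arrays, 76 matched: 35 collagen chains, 9 laminin chains, 3 fibulins, FN1, 12 integrin alpha subunits, 8 integrin beta subunits, 4 syndecans and 4 genes that matched the integrin pattern by name without being subunits (ITGBL1, ITGB1BP1, ITGB1BP2 and ITGB3BP). COL4A1, COL4A2 and ITGA5 had no probe set with a single symbol and were not analysed here.

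The CET group held 3 CL samples from monkeys given Cetrorelix (CET), an antagonist of the GnRH receptor by which LH support of the CL is withdrawn, as 1 injection of 150 µg/kg BW on day 7 of the luteal phase. The VEH group held 3 CL samples from monkeys that received 5.25% glucose on the same day, and in both groups the CL was taken 24 h after injection. According to the design text each monkey gave CL for both treatments, but which samples share an animal is not in the labels. The paper counts the animals of each treatment separately and does not mention shared animals. No animal term was therefore fitted, and p-values measure the spread between these samples only. Each sample was hybridised to 1 Affymetrix rhesus macaque array, so probes made for a related species read the RNA of bonnet monkeys.

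The extracellular matrix of the CL holds fibrillar collagens, which give tensile strength, and basement membranes of laminins and type IV collagen around the dense capillary bed that supplies the steroidogenic cells. Fibronectin and the fibulins link these networks. Cells hold on to them through integrins, receptors made of an alpha and a beta subunit, and through syndecans, membrane proteoglycans whose heparan sulfate chains bind matrix proteins and growth factors.

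The array values are intensity signals of probe sets, groups of short probes against 1 transcript, given here as quantile-normalized log2 signal. Where a gene had several probe sets, the one that was brightest over the 6 arrays stands for it, and a fold change is the difference of mean log2 signal, CET minus VEH. Brightness was used to choose probe sets and genes to name, and signals of different genes were not read as relative expression, since probe sets differ in how brightly they light up. Probe sets whose mean lay below a log2 signal of 7.43, the 40th percentile of the array, were called dim, and 67 of the 76 genes lay above this limit. As a second description of background, chosen after the data were seen, the 683 probe sets made against viral genomes had a median of 6.83 and a 95th percentile of 9.41, which 32 of the 76 genes exceeded.

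Few of these genes separated CET from VEH after LH/P4 depletion. SDC2, COL1A1 and COL18A1 had lower means in CET samples with an unadjusted p under 0.05 in limma, and none had a higher mean at that limit. COL1A1 and COL18A1 did not reach it without the intensity trend (unadjusted p = 0.0674 and 0.0654 in limma). With the methods' t-test 2 of the 76 genes reached it, SDC2 with a lower and LAMA3 with a higher mean. Of all 14132 genes, 3.01% were lower and 2.02% higher at that limit in limma with the intensity trend. These shares are to be set only against the SDC2, COL1A1 and COL18A1 result of that fit. Shares of all genes without the trend or with the methods' test are not given here. Over all probe sets, 2840 reached the limit with the trend, 2786 without it and 2729 with the methods' test. None of the 76 genes passed an adjusted p of 0.05 (0% of all genes did), and the smallest adjusted p among them was 0.827. The 3 CET arrays lay below all 3 VEH arrays for SDC2, COL18A1 and COL21A1, and above them for LAMA3, LAMA4 and COL28A1. Such a lack of overlap was seen in 6.45% of all genes on the lower side and in 5.07% on the higher side.

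Taken as a group, the matrix and adhesion genes were divided between lower and higher means much as all genes were. Of the 76 genes, 43 had a lower and 33 a higher mean in CET samples, and 54.7% of all genes had a lower mean. Their median log2 fold change was -0.13, against -0.08 over all genes. At a difference of 1.5-fold, 9 were lower (24% of all genes) and 12 were higher (18.6% of all genes). Both counts are a smaller share of the 76 genes than of all genes. The direction of the median depended on the scaling, at -0.21 with array medians subtracted and 0.01 with cyclic loess, when the median over all genes was -0.20 and -0.05. Among the 67 genes above the dim limit, which is a selection on brightness, 40 had a lower mean (57.7% of all genes above it).

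**Figure D1:**
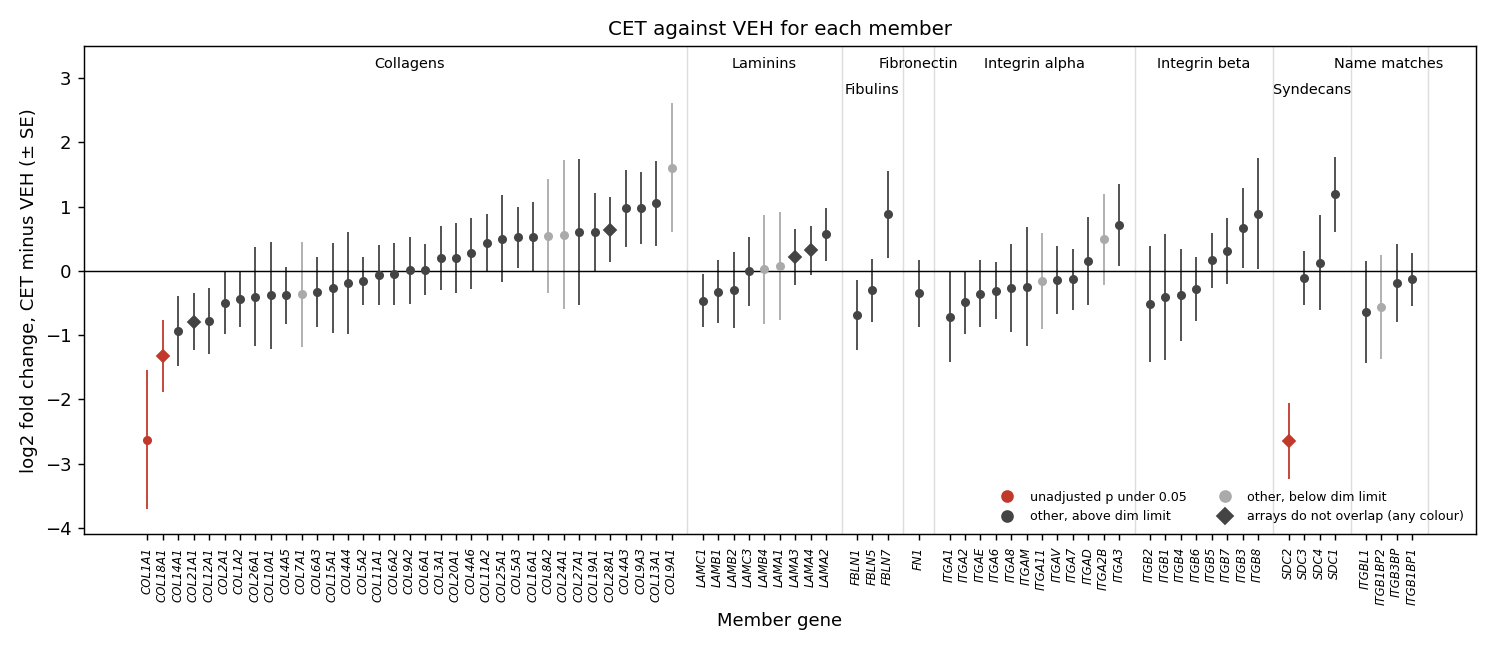
Log2 fold change, CET minus VEH, of each of the 76 genes at its brightest probe set, ordered within families along the horizontal axis, with bars of 1 standard error from limma. COL1A1, COL18A1 and SDC2 (red) are the 3 genes with an unadjusted p under 0.05, and the values of collagens, laminins, fibulins, integrin subunits and syndecans lie on both sides of 0.

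Collagens were divided evenly, with 17 chains of lower and 18 of higher mean in CET samples and a median log2 fold change of 0.01, which was -0.16 with array medians subtracted. COL1A1, which encodes a chain of type I collagen, the main fibrillar collagen of connective tissue, had log2 signals of 12.12, 8.42 and 6.56 in CET replicates 1, 2 and 3, against 12.56, 10.98 and 11.44 in VEH replicates 4, 5 and 6. CET replicate 1 thus lay within the VEH range, and only the other 2 CET arrays lay below it. The mean was 9.03 ± 2.83 in CET samples and 11.66 ± 0.81 in VEH samples (SD, n = 3 each), a log2 fold change of -2.63 (standard error, SE, 1.08, unadjusted p = 0.0321 in limma). Without CET replicate 1 the log2 fold change was -4.19, and without CET replicate 3 it was -1.43 (unadjusted p = 0.159 in limma). The 1 other probe set of COL1A1 was dim and had a log2 fold change of 0.32.

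COL1A2, which encodes the partner chain in type I collagen, had overlapping groups at both of its probe sets. Its log2 signals were 12.95, 11.75 and 12.43 in CET samples, against 13.02, 12.47 and 12.96 in VEH samples. The log2 fold change of -0.44 (SE 0.43) was within the spread of the samples, and the other probe set of COL1A2 gave -0.67. COL3A1, the chain of type III collagen, which is laid down with type I in soft tissues, had log2 signals of 9.04, 10.29 and 10.10 in CET samples and 9.98, 9.35 and 9.50 in VEH samples. The groups overlapped, and the log2 fold change was 0.20 (SE 0.49).

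COL18A1, a basement membrane collagen whose C-terminal fragment is endostatin, an inhibitor of vessel growth, had a lower mean in CET samples at both of its probe sets. The brighter gave 9.18, 8.48 and 8.10 in CET samples, against 10.82, 9.24 and 9.65 in VEH samples, with no overlap between the groups. Its log2 fold change was -1.32 (SE 0.56, unadjusted p = 0.0379 in limma). The second probe set of COL18A1 read 9.23, 7.72 and 8.25 in CET samples and 10.85, 9.46 and 9.73 in VEH samples, again without overlap. At that probe set the log2 fold change was -1.61 (SE 0.58, unadjusted p = 0.017 in limma). Both probe sets had their highest signal in VEH replicate 4. Without that array the log2 fold change at the brighter probe set was -0.87 (unadjusted p = 0.184 in limma), and over all alternatives it ranged from -1.65 to -0.87. Averaged over the 6 arrays, the brighter probe set lay below the 95th percentile of the viral probe sets.

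COL21A1 and COL28A1 also separated the groups, in opposite directions. COL21A1, a fibril-associated collagen with 1 probe set, had 10.16, 9.25 and 10.28 in CET samples, against 10.46, 10.85 and 10.74 in VEH samples. The gap between the highest CET and the lowest VEH array was small beside the spread, and the log2 fold change of -0.79 (SE 0.45) had an unadjusted p of 0.104 in limma. COL28A1, a collagen with von Willebrand factor A domains, had 9.10, 9.47 and 8.74 in CET samples and 8.69, 8.46 and 8.24 in VEH samples. Its log2 fold change was 0.64 (SE 0.51, unadjusted p = 0.233 in limma).

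The brightest collagen probe sets did not separate the groups. COL5A2, a chain of type V collagen, which takes part in starting type I fibrils, averaged 12.59 ± 0.14 in CET samples and 12.75 ± 0.30 in VEH samples, and all of its 4 probe sets had lower means in CET samples, from -0.16 to -1.20. COL6A1, a chain of the microfibrillar type VI collagen, averaged 12.76 ± 0.03 in CET samples and 12.73 ± 0.53 in VEH samples. A second bright probe set of COL6A1 gave 0.60, and a dim one gave -1.34 without overlap between the groups. At their brightest probe sets, the fibrillar chains other than COL1A1 had log2 fold changes from -0.50 (COL2A1) to 0.60 (COL27A1). Other probe sets turned the sign for COL2A1 (0.94), COL11A2 (-1.39, against 0.44 at its brightest) and COL11A1 (1.16, dim). Those of COL1A2 and COL5A2 kept it. COL27A1, which is added here for its spread after its values were seen, ranged from 6.43 to 12.31 over the CET arrays, against 8.16 to 9.34 over the VEH arrays. At their brightest probe sets, the measured type IV chains COL4A3, COL4A4, COL4A5 and COL4A6 had log2 fold changes of 0.97, -0.19, -0.38 and 0.27. Their groups overlapped there. The second probe sets gave -0.53, 0.17, -1.20 and -0.08, in the same order. At that of COL4A3, which was dim, all CET arrays lay below all VEH arrays.

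**Figure D2:**
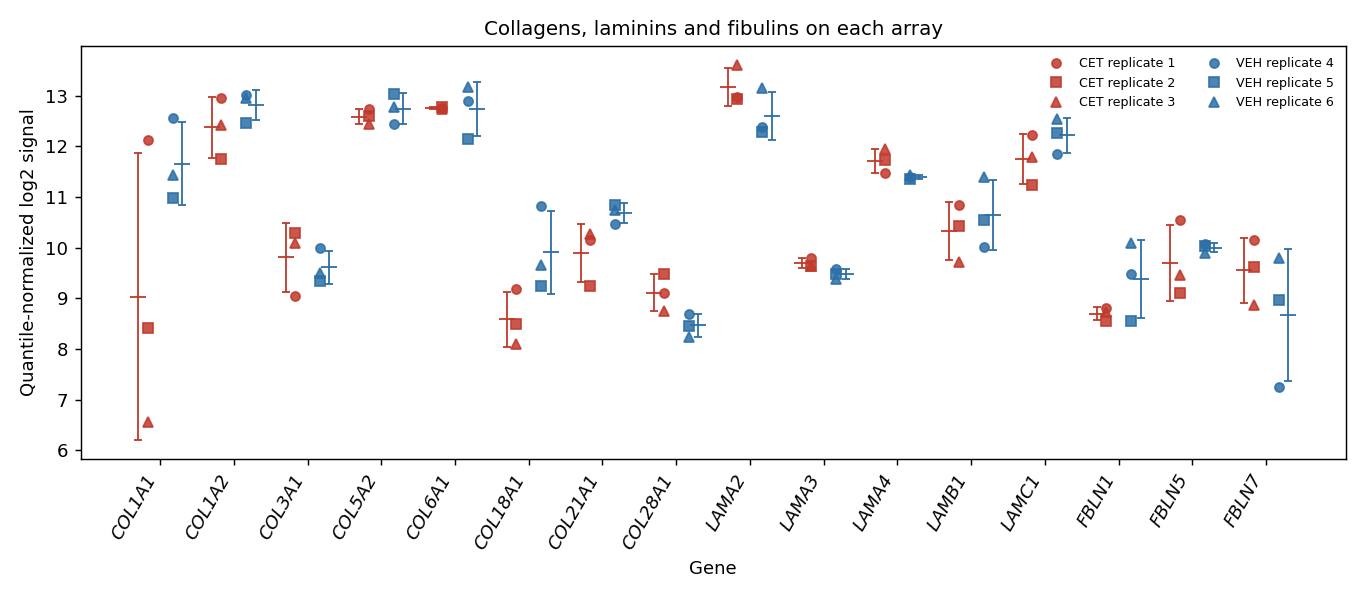
Quantile-normalized log2 signal of the named collagens, laminins and fibulins on each array, CET (red) left of VEH (blue) for each gene, with the mean and SD of 3 arrays beside the points. COL18A1 and COL21A1 have all CET arrays below all VEH arrays, COL28A1, LAMA3 and LAMA4 have them above, and COL1A1 spreads from 6.56 to 12.12 within CET.

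Laminin chains had 4 lower and 5 higher means in CET samples, a median log2 fold change of 0.03, which was -0.09 with array medians subtracted, and none differed by 1.5-fold at its brightest probe set. LAMA4, the alpha chain of laminins in vessel walls, had 11.48, 11.72 and 11.94 in CET samples, against 11.40, 11.36 and 11.43 in VEH samples. The groups did not overlap, yet the log2 fold change was 0.32 (SE 0.38, unadjusted p = 0.414 in limma) and it was -0.15 when array medians were subtracted in place of quantile normalization. LAMA3, an alpha chain typical of epithelial basement membranes, had 9.80, 9.64 and 9.64 in CET samples and 9.57, 9.47 and 9.38 in VEH samples. Its log2 fold change of 0.22 (SE 0.43) was likewise smaller than its SE.

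LAMA2, the alpha chain known from muscle and peripheral nerve, gave opposite answers at its probe sets. The brightest had 12.98, 12.93 and 13.61 in CET samples, against 12.38, 12.29 and 13.15 in VEH samples, a log2 fold change of 0.57 (SE 0.42). The second had 10.76, 8.78 and 8.93 in CET samples, against 10.72, 11.36 and 10.78 in VEH samples, a log2 fold change of -1.46 (SE 0.56, unadjusted p = 0.0237 in limma). That second probe set is of a design that can bind more than 1 transcript, as are the brightest probe sets of LAMB1, FN1, ITGB1 and ITGA1. LAMC1, the gamma chain found in most laminins, averaged 11.75 ± 0.49 in CET samples and 12.22 ± 0.34 in VEH samples, a log2 fold change of -0.46 (SE 0.42). LAMB1, a beta chain, averaged 10.33 ± 0.57 in CET samples and 10.65 ± 0.69 in VEH samples, a log2 fold change of -0.32 (SE 0.50).

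FN1, which encodes fibronectin, had log2 signals of 13.85, 12.00 and 13.67 in CET samples, against 13.23, 13.44 and 13.92 in VEH samples. Only CET replicate 2 lay below the VEH arrays. The log2 fold change was -0.35 (SE 0.52), and it was 0.24 without CET replicate 2. With the ratio of 3' to 5' signal of control probe sets as a covariate it was 0.105. The other probe set of FN1, which was dim, gave -1.21, and its probe sets averaged gave -0.78. Among the fibulins, FBLN1 averaged 8.70 ± 0.13 in CET samples and 9.38 ± 0.78 in VEH samples, a log2 fold change of -0.68 (SE 0.54) that its 2 other probe sets did not repeat (0.31 and 0.08). FBLN5, a fibulin needed for elastic fibres, averaged 9.70 ± 0.75 in CET samples and 10.00 ± 0.09 in VEH samples. FBLN7 averaged 9.55 ± 0.64 in CET samples and 8.67 ± 1.29 in VEH samples, and its log2 fold change of 0.88 was 0.17 without VEH replicate 4.

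Among the receptors, 9 of 12 integrin alpha subunits had a lower mean in CET samples, with a median log2 fold change of -0.20. The division was 6 and 6 without CET replicate 2 or without VEH replicate 4, with medians of 0.0196 and 0.00677. The beta subunits were divided 4 and 4 with a median of -0.06 that was 0.04 with cyclic loess. No integrin subunit had an unadjusted p under 0.05 in limma or arrays without overlap at its brightest probe set. The integrin beta subunit ITGB1, the shared partner of most collagen and laminin receptors, had 10.35, 8.40 and 11.35 in CET samples, against 7.99, 12.04 and 11.28 in VEH samples. Its low arrays were CET replicate 2 and VEH replicate 4, and its log2 fold change was -0.40 (SE 0.98). These were also the arrays with the highest ratio of 3' to 5' signal of the control probe sets, a sign of shortened RNA or cDNA, with mean log2 ratios of 5.92 and 3.54, against 0.61 to 2.67 on the other arrays. With this ratio as a covariate the log2 fold change of ITGB1 was 0.82, and without VEH replicate 4 it was -1.61. The part of RNA quality in these values was not tested.

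The collagen- and laminin-binding alpha subunits had overlapping groups at their brightest probe sets, with 5 of 6 lower means in CET samples. ITGA6, a laminin receptor subunit, had 13.30, 12.15 and 13.32 in CET samples and 13.28, 12.88 and 13.55 in VEH samples, a log2 fold change of -0.31 (SE 0.44). Its 3 other probe sets, all above the dim limit, gave -1.50, -0.38 and 0.86. ITGA2, a collagen receptor subunit, averaged 10.27 ± 0.78 in CET samples and 10.76 ± 0.42 in VEH samples, a log2 fold change of -0.49 (SE 0.49). ITGA3, another laminin receptor subunit, averaged 8.56 ± 0.84 in CET samples and 7.85 ± 0.39 in VEH samples, a log2 fold change of 0.71 (SE 0.63). The other probe set of ITGA3, which was dim, had the opposite sign, and its probe sets averaged gave 0.08.

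ITGA1, a collagen receptor subunit, was weak throughout. Its brightest probe set had 7.56, 6.82 and 6.88 in CET samples, against 7.18, 8.63 and 7.58 in VEH samples, a log2 fold change of -0.71 (SE 0.71). A dim probe set of ITGA1, singled out here after its values were seen, had 3.45, 4.28 and 3.71 in CET samples, against 7.14, 7.55 and 7.61 in VEH samples, a log2 fold change of -3.62 (SE 0.78). Of these arrays, 2 VEH arrays and no CET array exceeded the dim limit. It had an unadjusted p of 0.000664 in limma and an adjusted p of 0.827, and the 2 remaining probe sets of ITGA1, also dim, gave 0.33 and -1.46.

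The subunits that bind vitronectin and fibronectin through an RGD motif also gave overlapping groups. ITGAV, the alpha subunit of the vitronectin receptors, had 10.49, 8.83 and 9.94 in CET samples and 10.26, 10.04 and 9.40 in VEH samples, a log2 fold change of -0.15 (SE 0.53). Its partner ITGB5 averaged 10.59 ± 0.44 in CET samples and 10.43 ± 0.25 in VEH samples. The other probe set of ITGB5, above the dim limit, had a lower mean in CET samples, and its probe sets averaged gave -0.20. ITGB3, the partner of ITGAV on endothelial cells and of ITGA2B on platelets, had a log2 fold change of 0.67 (SE 0.62) at the brightest of 8 probe sets. The 2 others above the dim limit gave -1.01 and -0.30. ITGB8, which with ITGAV activates latent TGF-beta, had a log2 fold change of 0.89 (SE 0.86) that was 0.02 without VEH replicate 4, and its VEH mean was dim. Among the leukocyte integrins, ITGAM and ITGB2, which pair on myeloid cells, had log2 fold changes of -0.25 and -0.52, and ITGB7, a subunit of gut-homing receptors, had 0.31, all with overlapping groups.

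**Figure D3:**
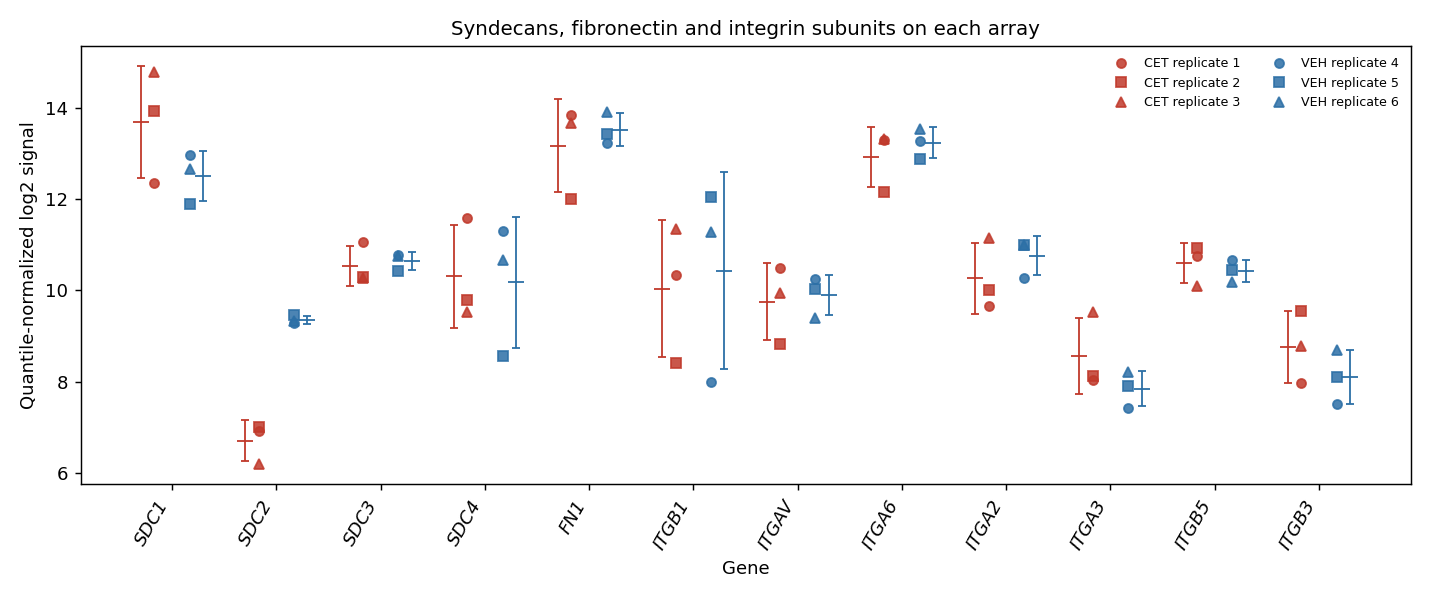
Quantile-normalized log2 signal of the 4 syndecans, FN1 and named integrin subunits on each array, CET (red) left of VEH (blue) for each gene, with the mean and SD of 3 arrays beside the points. SDC2 is the gene here whose CET arrays, from 6.18 to 7.00, all lie below its VEH arrays, from 9.27 to 9.45, and the low points of ITGB1 are CET replicate 2 and VEH replicate 4.

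The 4 syndecans had 2 lower and 2 higher means in CET samples and differed widely from each other in log2 fold change. SDC2, the syndecan of mesenchymal and endothelial cells, read 6.92, 7.00 and 6.18 in CET samples, against 9.27, 9.45 and 9.32 in VEH samples. All CET arrays lay below the dim limit and all VEH arrays above it, with an SD of 0.45 and 0.09 in CET and VEH samples. The log2 fold change of -2.65 (SE 0.59) corresponds to a signal 6.27-fold higher in VEH samples, with an unadjusted p of 0.000855 and an adjusted p of 0.827 in limma. Counted against the dim limit in place of the CET signal, the VEH mean was 3.77-fold higher. The VEH mean, 9.35, lay just below the 95th percentile of the viral probe sets.

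The other probe sets of SDC2 had the same sign with wider spread. The second, above the dim limit, had 6.92, 7.16 and 6.28 in CET samples, against 6.93, 9.39 and 8.60 in VEH samples, a log2 fold change of -1.52 (SE 0.78). VEH replicate 4 lay within the CET range there, at 6.93. The third, which is dim and of a design that can bind other transcripts, had 8.16, 3.93 and 5.43 in CET samples, against 5.94, 8.94 and 8.39 in VEH samples, a log2 fold change of -1.91 (SE 1.15). Over all alternatives, the log2 fold change of SDC2 ranged from -2.80 to -2.03, with the second value from its 3 probe sets averaged.

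SDC1, the syndecan of epithelial and plasma cells, had the largest positive difference among the syndecans. It read 12.36, 13.94 and 14.78 in CET samples, against 12.96, 11.90 and 12.66 in VEH samples. CET replicate 1 lay within the VEH range and the other CET arrays above it. The log2 fold change was 1.19 (SE 0.58, unadjusted p = 0.0652 in limma), 1.80 without CET replicate 1 and 0.47 when array medians were subtracted. Of its other probe sets, those above the dim limit gave 0.31 and 0.73 and a dim one gave -0.27.

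SDC3 and SDC4 showed no separation. SDC3 averaged 10.54 ± 0.45 in CET samples and 10.64 ± 0.20 in VEH samples, a log2 fold change of -0.11 (SE 0.42). SDC4, the syndecan of focal adhesions, had 11.60, 9.80 and 9.53 in CET samples and 11.31, 8.56 and 10.67 in VEH samples, a log2 fold change of 0.13 (SE 0.74). It was -0.66 without VEH replicate 5 and 0.69 without VEH replicate 4.

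The 4 genes that matched by name only had lower means in CET samples with overlapping groups. ITGB1BP1, which binds the cytoplasmic tail of ITGB1, averaged 11.31 ± 0.53 in CET samples and 11.44 ± 0.12 in VEH samples. ITGBL1, ITGB1BP2 and ITGB3BP had log2 fold changes of -0.63, -0.56 and -0.18, with SEs of 0.60 to 0.81.

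How far a gene's value depends on the probe set was examined over the 45 genes with more than 1. Of their 77 other probe sets, 39 had the same sign as the brightest, or 50.65%, against 55.84% over all genes. Among the other probe sets above the dim limit, 18 of 31 had the same sign, or 58.06%, against 57.82% over all genes. All probe sets had 1 sign in 12 of the 45 genes.

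**Figure D4:**
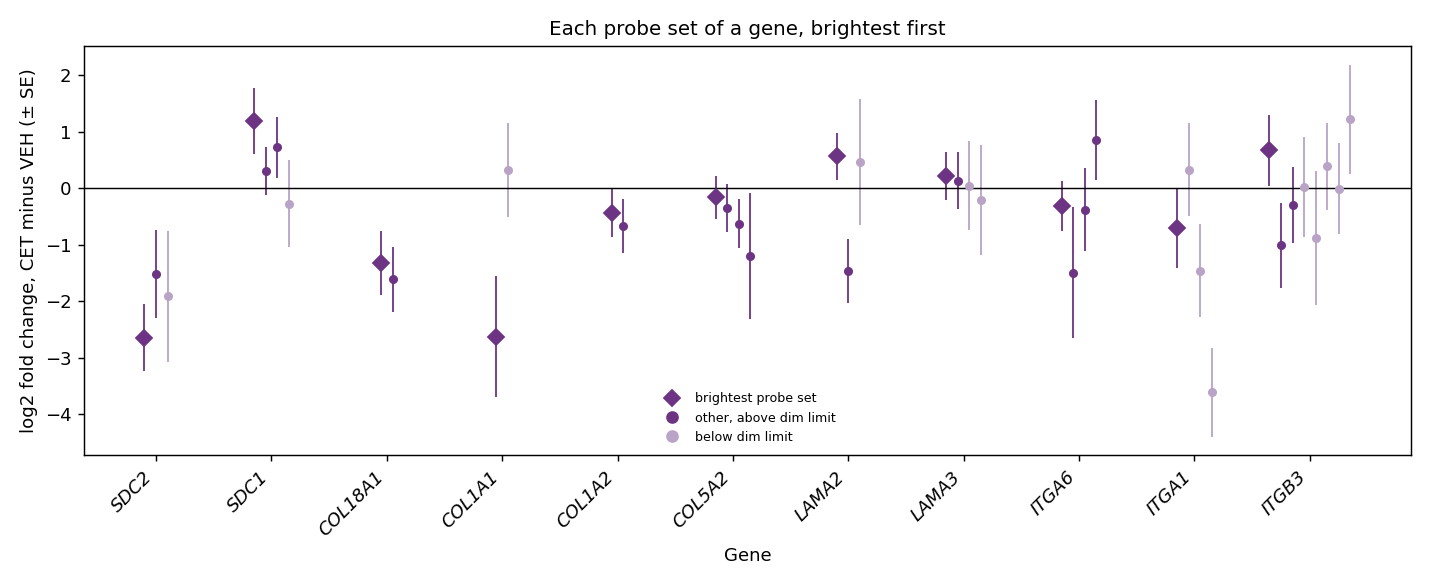
Log2 fold change, CET minus VEH, with bars of 1 SE, at every probe set of selected genes, brightest first from left to right within a gene. SDC2, COL18A1, COL1A2 and COL5A2 have all probe sets below 0, while LAMA2, ITGA6, ITGA1, ITGB3, SDC1, LAMA3 and COL1A1 have probe sets on both sides.

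Enzymes and chaperones that modify, fold and crosslink collagen had more lower than higher means. Of 23 symbols listed, which included older and newer symbols of the same gene, 19 were found. Of these 19 genes, 14 had a lower mean in CET samples (54.7% of all genes had), and the median log2 fold change was -0.31. LOXL1, a lysyl oxidase that crosslinks collagen and elastin, read 9.75, 6.01 and 6.96 in CET samples, against 9.52, 9.81 and 9.59 in VEH samples. CET replicate 1 again lay within the VEH range, and the log2 fold change was -2.07 (SE 0.84, unadjusted p = 0.0302 in limma). P4HA2, a subunit of prolyl hydroxylase, had 10.03, 9.68 and 9.86 in CET samples and 10.32, 10.12 and 10.26 in VEH samples, without overlap, at a log2 fold change of -0.38 (SE 0.41). SERPINH1, the collagen chaperone, had a log2 fold change of 0.20. The median of the 17 genes of this list above the dim limit, -0.38, was 0.07 without CET replicate 3. Of these 17, 13 had a lower mean with all samples and 8 without CET replicate 3.

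Other matrix glycoproteins and proteoglycans had 9 lower and 15 higher means among 24 genes found, with a median log2 fold change of 0.19. ECM1, a secreted glycoprotein of the matrix, had 8.80, 7.82 and 7.99 in CET samples, against 9.45, 9.05 and 9.66 in VEH samples. Its groups did not overlap, and the log2 fold change was -1.19 (SE 0.53, unadjusted p = 0.046 in limma). THBS1, the thrombospondin that inhibits vessel growth, had 9.56, 9.84 and 9.25 in CET samples, against 8.76, 8.58 and 8.94 in VEH samples, without overlap, at a log2 fold change of 0.79 (SE 0.47, unadjusted p = 0.122 in limma). DCN, LUM and BGN, small proteoglycans that bind collagen fibrils, had log2 fold changes of -0.24, 0.09 and 0.44. With array medians subtracted, the median of the genes of this list above the dim limit was -0.10, against 0.12 with quantile normalization.

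A list of genes of integrin adhesion and signalling, which also held DDR2, DAG1 and SDCBP, was read as well. It had 14 lower and 11 higher means among 25 found, with a median of -0.12. Over the 23 above the dim limit the median was -0.19, and it was -0.47 with the signals as deposited and -0.67 with array medians subtracted (17 of 23 lower). FERMT1, a kindlin that activates integrins, had 9.59, 8.79 and 10.20 in CET samples, against 8.12, 8.69 and 7.81 in VEH samples. Its groups did not overlap, and the log2 fold change was 1.32 (SE 0.56, unadjusted p = 0.0369 in limma). The actinins, which crosslink actin at adhesions, differed in sign. ACTN1 had 9.52, 10.44 and 9.32 in CET samples, against 8.54, 9.02 and 8.65 in VEH samples, without overlap, at a log2 fold change of 1.02 (SE 0.50). ACTN4 had 10.87, 8.46 and 9.03 in CET samples, against 11.43, 10.49 and 10.87 in VEH samples, a log2 fold change of -1.48 (SE 0.61, unadjusted p = 0.0328 in limma) in which CET replicate 1 overlapped the VEH range. LIMS1, an adaptor of integrin-linked kinase, also had all CET arrays above all VEH arrays, at 0.45. None of these genes passed the adjusted p, and a lack of overlap on the higher side was seen in 5.07% of all genes.

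Markers of the cell types that make and hold the matrix were read on the same arrays, where 54.7% of all genes had a lower mean in CET samples. In these pieces of whole CL, fewer cells of a type and less RNA per cell cannot be told apart. Fibroblast markers, which include FBLN1, had 6 lower and 3 higher means, and their mean log2 signal over the 7 genes above the dim limit was 11.02 to 11.29 on CET arrays and 11.13 to 11.61 on VEH arrays. Endothelial markers had 10 lower and 2 higher means, with 9.37 to 10.87 on CET arrays and 10.16 to 11.09 on VEH arrays over 10 genes. Their median, -0.41 over these 10 (9 lower), was 0.08 without CET replicate 3 (3 lower). CDH5, the cadherin of endothelial junctions, had the largest log2 fold change of the list, -1.52 (unadjusted p = 0.0181 in limma). PECAM1 had -0.04, and TEK went the other way at 0.84, both with overlapping groups. For EMCN, at -0.42, all CET arrays lay below all VEH arrays. Pericyte and smooth muscle markers had 5 lower and 2 higher means, with 9.92 to 10.66 on CET arrays and 10.46 to 10.75 on VEH arrays. Leukocyte markers, which include ITGAM and ITGB2, had 6 lower and 4 higher means, with 8.24 to 9.16 on CET arrays and 8.76 to 8.91 on VEH arrays.

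STAR, the cholesterol carrier of steroidogenic cells, had log2 signals of 14.85, 12.75 and 13.65 in CET samples and 15.23, 15.58 and 14.91 in VEH samples, all above the dim limit. All 7 steroidogenic markers found had a lower mean in CET samples, with a median log2 fold change of -1.18. The median was -0.73 without CET replicate 2, -0.77 (5 of 7 lower) without VEH replicate 5 and -0.66 when the fit carried the 3' to 5' signal ratio, and 6 of 7 were lower without CET replicate 1, as deposited and with array weights. On single arrays their mean log2 signal did not overlap between the groups, at 10.99 to 12.09 on CET arrays and 12.26 to 13.22 on VEH arrays. Epithelial markers had 6 lower and 1 higher mean, and the 4 above the dim limit had 7.52 to 8.85 on CET arrays and 8.61 to 9.17 on VEH arrays. The median of these 4, -0.82, was -0.14 without CET replicate 2. Neither the part of cell composition nor that of the steroidogenic markers in the values of SDC2, COL1A1 and COL18A1 was tested.

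By Spearman correlation over probe sets, each CET array had a lower mean rho with the other CET arrays than with the VEH arrays, at 0.664 and 0.756 for CET replicate 1, 0.71 and 0.727 for CET replicate 2, and 0.709 and 0.733 for CET replicate 3. Of the 76 genes, CET replicates 1, 2 and 3 lay below all VEH arrays in 15, 22 and 25 (25.3%, 31.9% and 38.3% of all genes) and above all VEH arrays in 19, 25 and 22 (26.4%, 31.8% and 26.7% of all genes). The number of arrays limits the precision, with a median replicate SD of 0.846 on the log2 scale over all probe sets, and with 3 samples against 3 the smallest p of an exact permutation test is 0.1.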

How the data were processed

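CL of 3 CET and 3 VEH samples were measured on Affymetrix rhesus macaque arrays. The deposited values are linear intensity signals of probe sets that the authors computed with MAS5, per the labels. The trimmed mean without the highest and lowest 2% of signals was 500 on each array. The sources used here give no detection calls.

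A floor of 1 was set on the signals before log2 transformation and quantile normalization over 52865 probe sets. Then 158 control probe sets were left out and 52707 were tested, of which 24956 had a single gene symbol, 361 several and 27390 none in the platform annotation. Symbols were used as given, and no sequence of the probes was used here. The comparison of CET with VEH used limma 3.58.1 (R 4.3.3), an intensity trend and Benjamini-Hochberg adjustment over all 52707. The test was checked on simulated data.

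The 76 genes and all lists were chosen with earlier results of these data known. Named with values among the 76 were genes above the dim limit with an unadjusted p under 0.05 or non-overlapping arrays. The 3 with the smallest p and the 2 brightest of each family were also named, and a set of luteal matrix genes whatever their values. This rule did not cover the lists, whose named genes were picked without a rule. Some list genes that met its limits, such as KRT18 and TAGLN, are not named above. Lists were read by counts and medians, without a set test. Single genes of the lists were read at their brightest probe set only. Their other probe sets and their values in the alternatives are not given here. The alternatives were other normalizations, log2(signal + 16), a floor at percentile 20 of each array, no dim probe sets, no trend, array weights, a covariate for the 3' to 5' ratio, the methods' t-test, each sample left out, and all probe sets of a gene averaged.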

Additional observations from a re-analysis of the deposited data

Results flagged for a closer look

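The control probe sets for the ends of housekeeping transcripts, which were left out of the genes compared and served only as a covariate in 1 alternative, had higher ratios of 3' to 5' signal in CET replicate 2 than on all VEH arrays. The ratio of 3' to 5' signal of GAPDH was 142.8 in CET replicate 2, against 1.79 to 7.31 on the VEH arrays. For ACTB the ratio was 37.2 in CET replicate 2, against 2.12 to 22.4 on the VEH arrays, and for EF1A it was 42.2, against 0.929 to 9.56. CET replicates 1 and 3 lay within the VEH range for ACTB (9.42 and 3.96) and GAPDH (5.89 and 3.03). Groups of 3 arrays were too small for a test of outlying samples in single genes.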

How the results depend on the processing

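The adjusted p in limma was passed by 0 probe sets as reported and in each of the 17 alternatives, and 2840 had an unadjusted p under 0.05. That number was 1756 with dim probe sets left out, 5086 with array weights, and 1694 to 7020 when single samples were left out, highest without CET replicate 1 and lowest without VEH replicate 5. Of the 76 genes, 3 had an unadjusted p under 0.05, 1 without the intensity trend, and 1 (without CET replicate 2) to 6 (without CET replicate 1) when single samples were left out. Their median log2 fold change was -0.0131 with the signals as deposited, -0.21 with array medians subtracted, 0.00544 with cyclic loess and -0.16 to 0.0321 when single samples were left out. The median over all genes was -0.08, 0.00 as deposited, -0.20 with array medians and -0.05 with cyclic loess. Under these settings the 76 genes were divided into 43 lower and 33 higher, 39 and 37, 48 and 28, and 37 and 39. The median of the collagens was -0.16 with array medians subtracted. When single samples were left out, the medians ran from -0.11 to 0.23 for collagens, -0.29 to 0.0196 for integrin alpha subunits, -0.0747 to 0.27 for integrin beta subunits and -0.43 to 0.32 for syndecans. The cause of these changes was not tested. Of the 35 genes named by rule, 18 kept their sign in all alternatives and 17 turned in at least 1, with a lowest adjusted p of 0.225. No paired analysis was possible because CET and VEH samples share no replicate numbers and the labels do not pair the animals. Without detection calls, a dim signal cannot be told from background.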
